A study of Mus musculus with 4 samples.

Results

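Nos2-high macrophages were studied by single-cell RNA sequencing of CD45+ cells taken from tumors of MC38, a mouse colon carcinoma line grown as a transplant. A cell was taken as a macrophage when at least 500 genes were detected, at most 10% of its unique molecular identifiers (UMIs) were mitochondrial, Csf1r had at least 1 UMI and the C1q genes (C1qa, C1qb and C1qc) held at least 0.2% of its UMIs. Cells with more than 2 UMIs of Cd3d, Cd3e and Cd3g, or more than 1 of Ncr1 and Klrb1c, were left out. Nos2-high macrophages were then chosen by the share of their UMIs on Nos2, as the top 10% over the 4 libraries pooled. They were 1414 of 14139 macrophages, and 28290 cells were deposited in all. The other 12725 macrophages served as the comparison within each library.

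The tumors grew in C57BL/6 mice that carry human CTLA-4 (B-hCTLA-4), a feature shared by all groups. Tumors of 11 mice were pooled into 1 library per group on day 8, after 3 treatments, and live CD45+ cells were sorted, fixed and hybridized with probes. Isotype control mice received human IgG1 at 10 mg/kg. The combination joined ipilimumab, a human IgG1 antibody to human CTLA-4, at 10 mg/kg with the mouse FcγRII antibody AT130-2 (mIgG1-N297A) at 20 mg/kg. For each of the remaining libraries the sample title named one of these antibodies and the treatment field the other, so they are called single antibody A (its title names anti-human CTLA-4) and single antibody B (its title names anti-mouse FcγRII). The article gives another number of tumors, day and doses. Since each treatment was 1 library, no test between treatments was possible, and 95% intervals across libraries cover counting error only. Treatment and library cannot be told apart. Values from here on are given in the order isotype control, single antibody A, single antibody B and combination.

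Nos2 encodes inducible nitric oxide synthase, which makes nitric oxide from arginine. In mouse macrophages it is induced by interferon gamma together with signals through NF-κB, and its product is toxic to microbes and to tumor cells and can also restrain T cells. Arginine reaches it through importers of the cell membrane and by recycling of citrulline, and the enzyme needs tetrahydrobiopterin as a cofactor.

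The Nos2-high cells made up 3.76%, 8.20%, 2.31% and 28.9% of macrophages in isotype control, single antibody A, single antibody B and the combination. The exact binomial intervals were 3.18 to 4.42, 7.27 to 9.21, 1.87 to 2.82 and 27.3 to 30.5. These were 144, 258, 92 and 920 cells, so that 65.1% of all Nos2-high cells came from the combination library. The share was the quantity the cells were selected on, and is given as a description. Of kept cells, macrophages themselves were 46.9%, 49.4%, 65.5% and 41.9%. The limit lay at 6.94 Nos2 UMIs per 10000 UMIs of a cell. The 10 cells just inside held 6.94 to 6.99 and the 10 just outside 6.86 to 6.94, and 344 macrophages lay within 1.25-fold of the limit, 165 inside and 179 outside. The class is by its rule a range of Nos2, and whether it is a type of its own was not tested. Of the other macrophages, 74.8% held no Nos2 UMI. Only 4 members had 2 or fewer Nos2 UMIs.

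**Figure D1:**
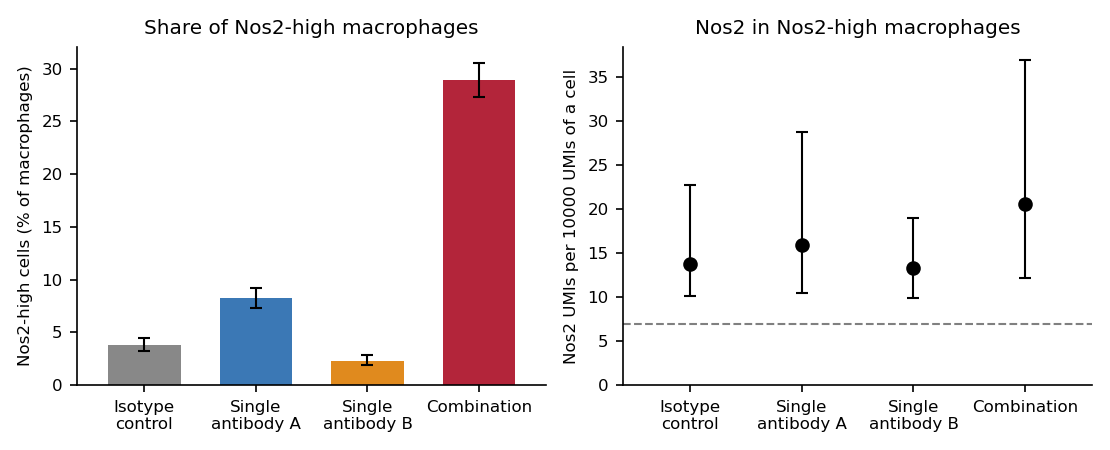
Left, Nos2-high cells as a percentage of macrophages in each library, with bars from 0 and exact 95% binomial intervals. Right, median Nos2 UMIs per 10000 UMIs of a Nos2-high cell with lower and upper quartiles, and the limit of 6.94 as a dashed line. The combination had the highest share, 28.9%, and the highest median, 20.5.

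Nos2 (chr11:78920787-78960254 on GRCm38) also varied among the chosen cells. The median Nos2-high cell held 22, 32, 27 and 49 Nos2 UMIs, and the highest 711. Summed over cells, Nos2 stood at 1906, 2207, 1704 and 2693 counts per 1000000 UMIs of the class (CPM) in Nos2-high cells and at 34.0, 44.0, 27.5 and 116 in the other macrophages. The Nos2-high cells were not deeper than the others, with a median of 14537, 21060, 19073 and 23809 UMIs, against 17598, 21607, 21020 and 24283 in the others. They had fewer detected genes, with a median of 4024, 4692, 4508 and 5170 against 4888, 5264, 5241 and 5516. C1q genes, which the rule used, took a median of 0.860%, 1.21%, 1.10% and 1.01% of UMIs against 1.496%, 1.69%, 1.57% and 1.58%.

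Macrophages above this limit held 43.6% of all Nos2 UMIs in the 4 libraries, the other macrophages 7.47%, and cells outside the macrophage rule 48.9%. Cells with a Csf1r UMI that failed the C1q minimum numbered 5278, of which 833 were above the Nos2 limit, and they held 19.1% of Nos2 UMIs. Cells with T or NK cell genes over the rule's limits held another 29.0%. Monocytes, taken here as cells with a UMI of Ccr2 and of Plac8, no T or NK cell gene and C1q under the minimum, were above the limit in 4.32%, 12.1%, 4.75% and 30.6% of cells. In monocytes, as in macrophages, the combination was highest and single antibody A next. T cells served as background: 0, 0, 0 and 2 of 306, 579, 181 and 322 were above the limit. Nos2 in T cells stood at 4.06, 2.33, 3.86 and 36.5 CPM at a median depth of 4638 UMIs, highest in the library with the most Nos2. No full barcode occurred in 2 libraries. The first 16 bases, which mark the droplet, were found in another library too for 33.2% of all cells, 34.5% of Nos2-high and 33.3% of other macrophages.

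Nos2-high and other macrophages of the same library were compared on UMI counts summed over each class, with the library as a block (edgeR, Benjamini-Hochberg over 11723 genes). The 4 libraries stand in for replicates of this within-library difference, and genes of the rule were left out of every count. A gene was called at an adjusted p under 0.05 with a fold of at least 1.5. By this criterion 977 genes (8.33%) were higher and 837 (7.14%) lower in Nos2-high macrophages. The direction was the same in all 4 libraries for 1747 of the 1814 called genes and for 7813 (66.6%) of all genes tested. TMM scaling, which sets the bulk of genes equal, raised each log2 fold change by a median of 0.209 over scaling by total UMIs. With total UMIs alone, 647 genes were higher and 1696 lower, so that 27.6% of calls were higher in place of 53.9%. Counts of called genes in the lists below are to be read beside these counts over all genes. Levels below are in CPM, per total UMIs of a class, while log2 fold changes (± SE) are from the TMM fit. A level is a count of probe-bound UMIs and is compared within a gene, not between genes.

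Among genes with a mean of at least 50 CPM in either class, the highest fold belonged to Tnfrsf9, the costimulatory receptor 4-1BB. Tnfrsf9 stood at 365, 260.0, 244 and 351 in Nos2-high macrophages and at 27.8, 23.9, 22.2 and 60.4 in the others, without overlap (log2 fold change 3.48 ± 0.18, adjusted p = 6.4e-06). It was followed by Rsad2, the antiviral protein viperin, at 915, 898, 1089 and 418 against 121, 163, 115 and 106 (log2 fold change 2.86 ± 0.19, adjusted p = 1.6e-05). Inhba, a subunit of activins, stood at 76.1, 68.9, 6.39 and 117 against 4.35, 7.29, 4.42 and 38.4, and its members' level with single antibody B lay within the range of the others (log2 fold change 2.81 ± 0.42, adjusted p = 0.00088). Ptgs2, the inducible cyclooxygenase, stood at 256, 254, 217 and 279.5 against 43.0, 49.3, 31.7 and 73.3 (log2 fold change 2.60 ± 0.13, adjusted p = 5.7e-06). The remaining genes of the 12 with the largest change were Sdc1, Slc7a11 (the cystine transporter), Mmp12 (macrophage elastase), Met, Ndrg1, Upp1, Hilpda and Procr, with log2 fold changes from 2.36 to 2.60. Mmp12 stood at 2920.3, 2499.6, 2244 and 2617 against 468, 527, 456 and 699.

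Genes of arginine metabolism share their substrate or its carriers with Nos2. Of 14 tested genes of arginine and nitric oxide metabolism besides Nos2, 4 were higher and 1 lower, with a median log2 fold change of 0.17 against -0.03 over all genes tested. Of all genes tested, 8.33% were higher and 7.14% lower. With total UMIs as scaling, 3 were higher and 3 lower, with a median of -0.044. Slc7a2, an arginine importer, stood at 707, 459, 570.4 and 628 in Nos2-high macrophages and 137, 135, 123 and 221 in the others, without overlap (log2 fold change 2.17 ± 0.14, adjusted p = 1.3e-05). Ass1, which makes argininosuccinate in the recycling of citrulline to arginine, stood at 531, 818, 552 and 1113 against 234, 277, 229.7 and 601, so that the Nos2-high cells of isotype control and single antibody B lay below the other macrophages of the combination (log2 fold change 1.44 ± 0.10, adjusted p = 1.9e-05). Slc3a2, the partner of several amino acid transporters, and Gch1, the first enzyme of the synthesis of the cofactor tetrahydrobiopterin, were higher with log2 fold changes of 0.84 and 0.77. With total UMIs as scaling, Gch1 was at 0.56 and was no longer called. Slc7a1, another arginine importer, was the gene called lower, at 10.5, 13.8, 9.58 and 8.94 against 20.7, 18.2, 23.5 and 16.4 (log2 fold change -0.61 ± 0.14, adjusted p = 0.00797). That call was lost under 7 alternatives, with log2 fold changes from -0.36 to -0.56. The argininosuccinate lyase Asl (0.12), and the later enzymes of cofactor synthesis Pts (-0.21) and Spr (-0.44), were not called, except that Spr was lower with total UMIs (-0.65). Nostrin, at -0.38 and not called, was also lower with total UMIs (-0.59).

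Slc7a2 was also followed cell by cell. After each cell was drawn down to 8807 UMIs (150 Nos2-high and 1263 other macrophages were shallower and were left out), a Slc7a2 UMI was expected in 79.3%, 68.3%, 76.4% and 80.3% of Nos2-high cells and in 37.0%, 37.7%, 33.7% and 48.7% of the others. In the 236 T cells of at least that depth it was 1.82%. Before drawing down, the share over all libraries was 87.7% of Nos2-high cells, 53.9% of the others and 2.54% of T cells.

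**Figure D2:**
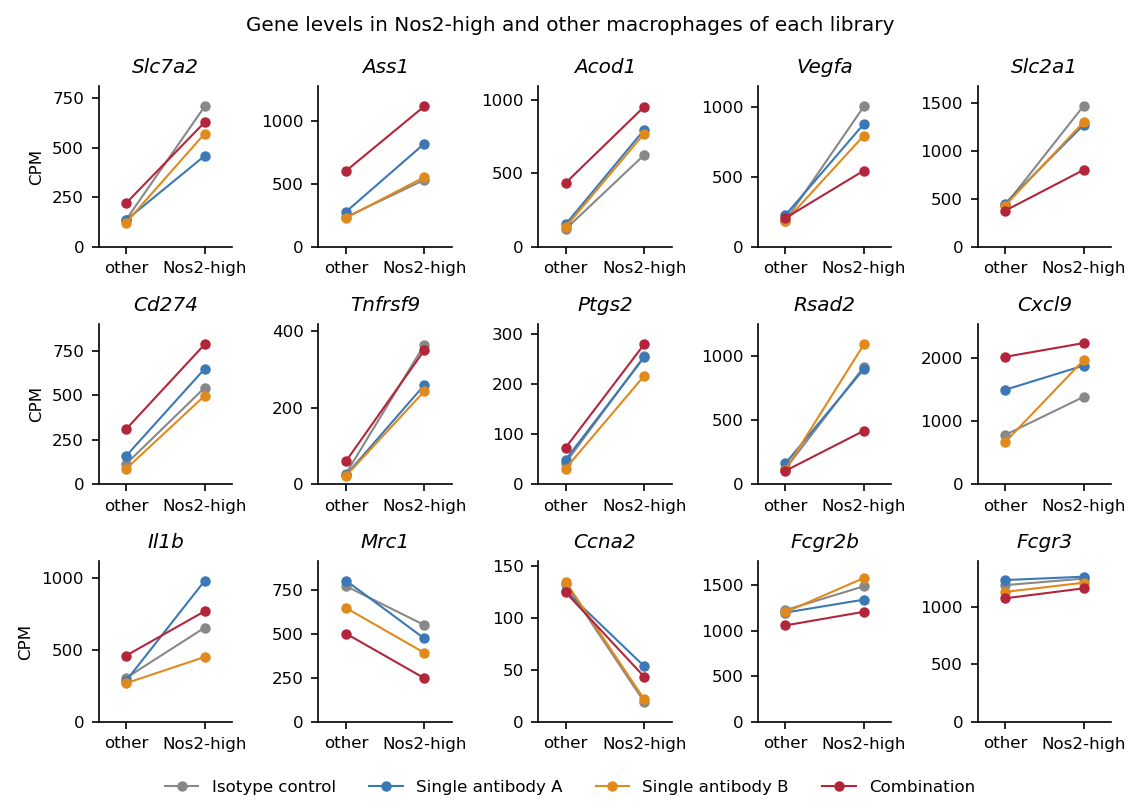
CPM of the class (y axis, from 0) for 15 genes in the other and the Nos2-high macrophages, with a line for each of the 4 libraries. All lines go up for Slc7a2, Acod1, Cd274, Tnfrsf9, Ptgs2 and Rsad2 and down for Mrc1 and Ccna2, while Fcgr3 differs little between classes.

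Genes of glycolysis, the response to low oxygen and itaconate synthesis were called higher in 21 of 23 cases and lower in none (17 with total UMIs as scaling), with a median log2 fold change of 0.90. Acod1, which makes the metabolite itaconate, stood at 625, 796, 771 and 953 against 121, 154, 136 and 435 (log2 fold change 2.31 ± 0.21, adjusted p = 7.6e-05). Egln3, a prolyl hydroxylase that is itself induced by low oxygen, stood at 644, 437, 523 and 293 against 128, 103, 135 and 89.7 (log2 fold change 2.23 ± 0.10, adjusted p = 3.2e-06). Vegfa, the angiogenic factor, stood at 1002, 877, 794 and 545 against 186, 226, 183 and 206 (log2 fold change 2.19 ± 0.15, adjusted p = 1.7e-05). In all 3 genes the lowest Nos2-high library was above the highest library of the others. These 3 had the largest folds of the list. The share of all genes whose classes separated in this way, as also for Tnfrsf9 and Slc7a2, was not counted. Over single macrophages, the 5 genes whose share of UMIs followed that of Nos2 most closely were Cd274, Vegfa, Ero1l, Ndrg1 and Slc2a1, among 9853 genes detected in enough cells. Their Spearman correlations, averaged over the 4 libraries, were 0.43, 0.42, 0.42, 0.41 and 0.40, computed over the 3825, 3146, 3985 and 3183 macrophages of a library. The cells share a library and the rule's selection, and the correlations are a description. Ero1l is an oxidase of the endoplasmic reticulum and Slc2a1 the glucose transporter GLUT1. Slc2a1 stood at 1470.0, 1272, 1301 and 803 against 433, 452, 430.4 and 377 (log2 fold change 1.70 ± 0.10, adjusted p = 1.1e-05).

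Interferon-response genes formed a further group. Of 26 genes of the response to interferon gamma, 20 were higher and none lower (12 higher and 1 lower with total UMIs), with a median log2 fold change of 0.76. Cd274, which encodes PD-L1, stood at 543, 649, 498 and 786 against 115, 160.0, 87.8 and 310.4 (log2 fold change 2.23 ± 0.17, adjusted p = 2.9e-05). The guanylate-binding proteins Gbp4 and Gbp5 had log2 fold changes of 1.51 and 1.51. Of the receptor subunits, Ifngr1 had a log2 fold change of -0.49 and Ifngr2 of -0.02, and neither was called, although Ifngr1 was lower with total UMIs (-0.71). Of 22 tested genes of the type I interferon response, 17 were higher (14 with total UMIs) and none lower, with a median of 1.13. Rsad2, Cmpk2 and Ifit2 led them, and Cmpk2, a nucleotide kinase next to Rsad2 in the genome, stood at 193, 159.8, 259.7 and 101 against 42.9, 42.0, 43.1 and 41.1 (log2 fold change 2.19 ± 0.18, adjusted p = 4.4e-05). In each of these 3 genes the combination had the lowest Nos2-high level.

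Promoters were read for the genes with the largest increase and for Cd274, Slc2a1 and Vegfa, all of them called higher in Nos2-high macrophages. RefSeq promoters on GRCm38.p6 (the 250 bases before a transcript start) matched 11 of the 12 genes of largest increase, and Ndrg1 was not matched. The motifs searched on both strands were an NF-κB form, GGNNNTTCC, a STAT form, TTCNNNGAA, an interferon response form, GAAANNGAA, and the hypoxia core ACGTG. The hypoxia core was added to the 3 forms that had been planned. They occurred in 15.7%, 7.02%, 7.13% and 16.6% of 32851 promoters, and in 4, 2, 1 and 2 of the 11 matched genes, some of which have more than 1 promoter. Of the 5 genes closest to Nos2, 3 were matched (Cd274, Slc2a1 and Vegfa). Among these, the interferon response form occurred in Cd274 and Vegfa, the hypoxia core in Slc2a1 and Vegfa, and the remaining forms in none. A match is a run of letters and not a bound site. The promoters of Tnfrsf9 (chr4:150927749-150927998, plus strand), Rsad2 (chr12:26456453-26456702, minus strand) and Cd274 (chr19:29367188-29367437, plus strand) are shown 5′ to 3′ with matches of the first 3 forms in capitals. The Tnfrsf9 promoter is the second of 2 in RefSeq and lies within the gene, since its start is 13437 bases downstream of the first base of Tnfrsf9 in GENCODE (150914562). Of 9 GENCODE transcripts of Tnfrsf9, 2 begin at that start. The Rsad2 start is also that of GENCODE, and the Cd274 start lies at -17 relative to it. The matches in Tnfrsf9 are the STAT form and then the NF-κB form, in Rsad2 the interferon response form and then the NF-κB form, and in Cd274 the interferon response form.
Tnfrsf9: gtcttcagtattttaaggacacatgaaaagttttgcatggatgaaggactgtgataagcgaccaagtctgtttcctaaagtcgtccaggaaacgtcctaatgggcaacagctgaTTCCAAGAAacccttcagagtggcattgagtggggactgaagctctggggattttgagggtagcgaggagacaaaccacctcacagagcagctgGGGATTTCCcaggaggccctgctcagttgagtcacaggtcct
Rsad2: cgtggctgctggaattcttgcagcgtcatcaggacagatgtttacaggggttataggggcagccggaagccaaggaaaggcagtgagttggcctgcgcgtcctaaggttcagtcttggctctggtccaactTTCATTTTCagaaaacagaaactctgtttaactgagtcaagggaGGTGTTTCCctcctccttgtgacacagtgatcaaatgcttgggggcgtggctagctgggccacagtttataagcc
Cd274: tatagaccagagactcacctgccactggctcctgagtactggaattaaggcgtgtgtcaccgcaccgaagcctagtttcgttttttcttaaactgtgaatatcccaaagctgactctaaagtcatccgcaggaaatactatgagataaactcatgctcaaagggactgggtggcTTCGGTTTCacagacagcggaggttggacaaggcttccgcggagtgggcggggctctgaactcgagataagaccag

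Among interleukins and members of the TNF family, 14 of 20 tested genes were higher and none lower (1 lower with total UMIs), with a median log2 fold change of 1.02. Il1b stood at 656, 983, 452 and 771 against 306, 286, 269.6 and 462, and the Nos2-high cells of single antibody B lay just below the other macrophages of the combination (log2 fold change 1.31 ± 0.15, adjusted p = 0.00026). Il1a stood at 108, 134, 52.7 and 155 against 19.0, 26.9, 21.4 and 46.0 (log2 fold change 2.22 ± 0.16, adjusted p = 2.7e-05). Il6 was called higher at very low levels, 3.22, 3.70, 0 and 3.31 against 0.347, 0.418, 0.187 and 1.13, and an Il6 UMI was expected in 1.62% of Nos2-high cells drawn to 8807 UMIs, in 0.340% of the others and, as background, in 0.308% of T cells. Il12b, the p40 chain of interleukin 12, was expected in 0.45% and 0.36%, while its level was 0, 0.168, 0.532 and 1.92 against 3.33, 1.17, 1.41 and 3.40 (log2 fold change -1.27 ± 0.49, adjusted p = 0.0677 in edgeR, not called). With total UMIs Il12b was lower (-1.47, adjusted p = 0.0288 in edgeR). Of 20 chemokines tested, 7 were higher and 2 lower (7 and 4 with total UMIs). Ccl5 stood at 775, 1281, 931 and 2401 against 278, 410.1, 173 and 993 (log2 fold change 1.91 ± 0.17, adjusted p = 5.7e-05). Cxcl10, a ligand of CXCR3, stood at 732, 959.5, 934 and 732 against 254, 362, 241 and 608 (log2 fold change 1.502 ± 0.23, adjusted p = 0.00101). Its sister Cxcl9 stood at 1386, 1881, 1968 and 2238 against 783, 1498, 668 and 2020.0, with ranges that overlapped and a ratio in the combination of only 1.11 (log2 fold change 0.92 ± 0.20, adjusted p = 0.00634). The chemokines called lower were Ccl2, which draws monocytes, at 139.7, 269, 185 and 294 against 287, 457, 302 and 481 (log2 fold change -0.59 ± 0.07, adjusted p = 0.0002), and Ccl17 at 7.65, 0.840, 0 and 3.71 against 5.83, 8.14, 6.99 and 29.6. Ccl2 lay near the limit of 1.5-fold and lost its call under 7 alternatives, leaving out isotype control among them (-0.50), with log2 fold changes from -0.32 to -0.57. Ccl17 lost its call under 5, with -1.94 without single antibody A and -1.33 without the combination. Without the library block, Cxcl9 was no longer called (adjusted p = 0.104 in edgeR).

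NF-κB components and feedback genes were higher in 12 of 23 cases (7 with total UMIs) and lower in 1. Over all genes tested, 8.33% were higher and 7.14% lower. Tnfaip2, Traf1 and Sod2, the mitochondrial superoxide dismutase, had log2 fold changes of 1.43, 1.37 and 1.32, and Cebpd of -0.62 (not called under 4 alternatives, from -0.42 to -0.57, leaving out single antibody B among them). The list of stress, lipid and Spp1 macrophage genes had 17 of 23 genes higher and none lower (14 and 1 with total UMIs), led by Slc7a11, Mt2 (a metallothionein) and Fabp4 with 2.56, 1.80 and 1.71. Matrix genes and proteases were higher in 10 of 15 cases (8, and 1 lower, with total UMIs). Costimulatory and checkpoint ligands were higher in 9 of 16 cases and lower in 1 (8 and 2 with total UMIs): after Cd274 came Pdcd1lg2, which encodes PD-L2, at 59.2, 76.3, 42.6 and 131 against 16.8, 23.2, 6.13 and 64.3 (log2 fold change 1.86 ± 0.22, adjusted p = 0.00025), and Cd276, another ligand of this family, was lower (-0.75). Pdcd1lg2 was not called without the library block (adjusted p = 0.0606 in edgeR), and Cd276 was not called with the top 10% within each library (-0.57) or at least 5 Nos2 UMIs (-0.47). Prostaglandin and leukotriene genes were split, with 3 of 17 higher and 5 lower (3 and 7 with total UMIs). Ptges, the synthase that acts on the product of cyclooxygenase, stood at 13.3, 34.1, 9.58 and 56.4 against 2.24, 2.70, 3.24 and 7.75 (log2 fold change 3.06 ± 0.26, adjusted p = 5.2e-05). Hpgd, which degrades prostaglandins, and Ptgs1, the constitutive cyclooxygenase, were lower, with -1.35 and -1.10, and Hpgd was not called without isotype control (-1.25) or single antibody A (-1.19). None of the 10 MHC class II genes was called, with a median of 0.36 and H2-Ab1 at 0.57 ± 0.16 (adjusted p = 0.0206 in edgeR, fold under 1.5).

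**Figure D3:**
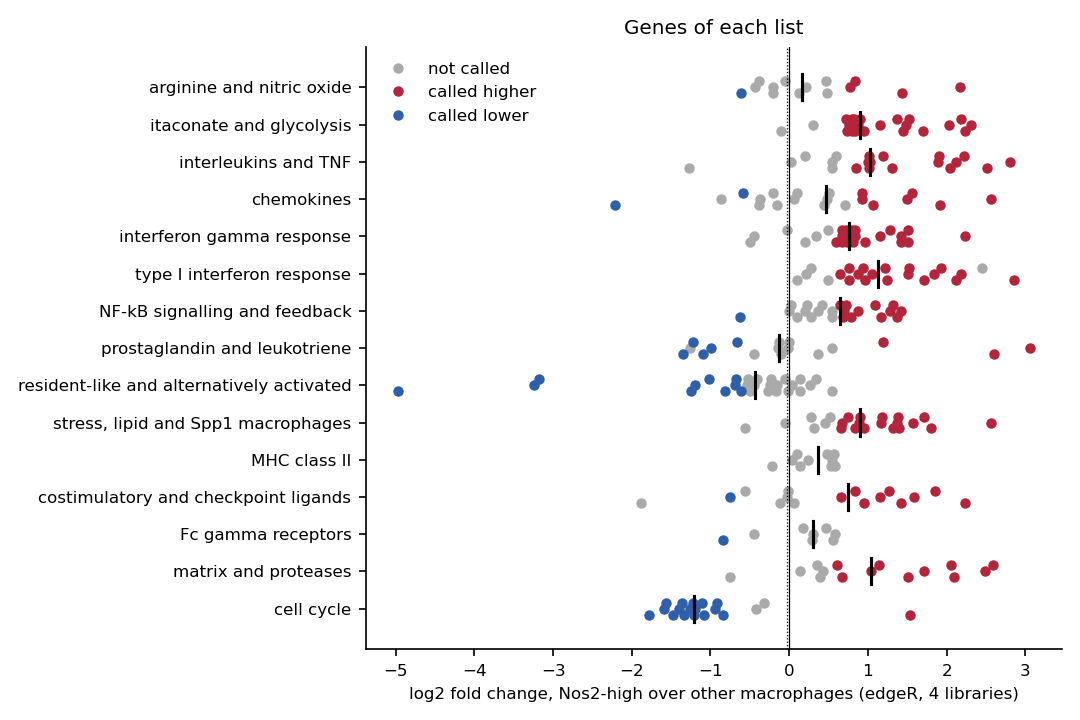
Log2 fold change of Nos2-high over other macrophages for each tested gene of 15 lists (x axis). Red and blue points are genes called higher and lower, gray points genes not called, black ticks the median of the list and the dotted line the median of all genes, -0.03. Cell cycle genes lie on the left, with 16 of 19 called lower, and glycolysis genes on the right, with 21 of 23 called higher.

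Among the lists, those of resident-like macrophages and of the cell cycle held the most genes called lower. Of 28 genes of resident-like and alternatively activated macrophages, 10 were lower (15 with total UMIs) and none higher, with a median log2 fold change of -0.43 (-0.64 with total UMIs). Retnla, a marker of alternative activation, stood at 4.43, 0.504, 0.532 and 28.7 against 9.26, 112, 74.9 and 179 and had the lowest fold of all genes named by size (log2 fold change -3.18 ± 0.49, adjusted p = 0.00103). Without the library block, it was no longer called (adjusted p = 0.0696 in edgeR). These levels rest on few cells: a Retnla UMI was seen in 47 of 1414 Nos2-high cells (3.32%) and in 269 of 12725 other macrophages (2.11%), and 20 cells held 76.8% of the 26272 UMIs of the others. In the combination 1 cell held 639 of the 718 UMIs of the Nos2-high class. Lyve1 and Cd163 were low, at 0.403, 0, 0 and 0.120 and 2.01, 0.168, 0 and 0.0798 in Nos2-high cells and 2.96, 14.8, 2.43 and 2.12 and 0.480, 13.1, 2.83 and 1.03 in the others. Both were called lower (adjusted p = 0.00025 and 0.0309 in edgeR), but some Nos2-high libraries had no UMI, so that a fitted fold is no bound. Without single antibody A, the log2 fold change of Cd163 went from -3.25 to -1.45 and it was no longer called (adjusted p = 0.396). Without the combination it was at -3.30 with an adjusted p of 0.0506. Mrc1, the mannose receptor CD206, stood at 551, 475, 393 and 249 against 773, 805, 649 and 503, lower in 4 of 4 libraries, yet its fold stayed under 1.5 (log2 fold change -0.54 ± 0.08, adjusted p = 0.00105). It was called lower with total UMIs as scaling and under 4 other alternatives. Tmem176b and Tmem176a, a pair of neighbouring membrane protein genes, stood at 67.6, 33.1, 55.3 and 24.2 and 46.7, 12.8, 22.9 and 13.8 against 217, 179, 219 and 80.3 and 114, 90.1, 114 and 36.9.

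Among 19 tested cell cycle genes, 16 were lower and 1 higher, with a median of -1.22. Ccna2, cyclin A2, stood at 19.3, 53.6, 21.8 and 43.5 against 133, 126, 135 and 125 (log2 fold change -1.59 ± 0.21, adjusted p = 0.00041). Rrm2, Tk1, Anln, Birc5, Plk1 and the histone genes Hist1h1a and Hist1h1b were also among the 12 genes with the largest decrease. The gene that was higher was Cdkn1a, the cell cycle inhibitor p21, at 526, 584, 538 and 464 against 205, 203, 189 and 243 (log2 fold change 1.54 ± 0.10, adjusted p = 1.6e-05). Per cell, the difference lay in the upper tail. Over the libraries pooled, the median cell had 10.5 UMIs of these genes per 10000 in Nos2-high and 11.1 in other macrophages. The 90th percentile was 29.2 and 76.8. By library, the medians were 10.6, 13.1, 10.8 and 9.99 against 10.9, 11.4, 11.2 and 11.2, so that Nos2-high cells were higher with single antibody A. The 90th percentiles were 25.4, 42.9, 21.6 and 26.3 against 74.8, 76.1, 80.2 and 74.2.

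Fcγ receptors are of interest because an antibody in the design binds FcγRII. Of 8 genes, the 4 receptors Fcgr1, Fcgr2b, Fcgr3 and Fcgr4 with their signalling partners Fcer1g, Syk and Inpp5d and with Fcgrt, none was called higher and 1 lower (2 with total UMIs). Of all 11723 genes tested, 7.14% were called lower, and 1696 genes with total UMIs. Fcgr2b, the inhibitory receptor, stood at 1490.2, 1343, 1581 and 1209.6 in Nos2-high and 1228, 1201, 1205 and 1060.0 in other macrophages (log2 fold change 0.47 ± 0.06, adjusted p = 0.0004, fold under 1.5). Fcgr4 and Fcgr3, which are activating receptors, had log2 fold changes of 0.55 and 0.29. Fcgr1, the high-affinity receptor, was at 703, 815, 780.1 and 715 against 687, 751, 621 and 776, that is below the others in the combination per total UMIs but above them in all 4 libraries with TMM scaling (log2 fold change 0.30 ± 0.077, adjusted p = 0.0136 in edgeR, fold under 1.5). Fcgr4 was called higher when single antibody A or the combination was left out and against macrophages without Nos2. The gene called lower was Fcgrt, the neonatal Fc receptor, at 54.0, 71.6, 52.1 and 56.9 against 127, 153, 123 and 99.0 (log2 fold change -0.84 ± 0.08, adjusted p = 7.9e-05).

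Of 9 tested markers of macrophages that the rule did not use, only Cd14 was called, with a log2 fold change of 1.46, and none was lower. Beside the marker lists, 8.33% of all 11723 genes were higher and 7.14% lower, or 647 and 1696 genes with total UMIs. Adgre1 (F4/80) had a log2 fold change of -0.37 and Cd68 of 0.33. Of 13 monocyte markers 3 were higher and 1 lower (3 and 4 with total UMIs, with a median log2 fold change of -0.149 in place of 0.0584). The higher ones were Ly6i at 89.4, 144, 68.6 and 204 against 27.0, 28.1, 12.3 and 64.5, Ly6a (log2 fold change 1.05) and Plac8 (0.88), and the lower one was Treml4 (-0.96). Without the library block, Ly6a and Plac8 were not called (adjusted p = 0.0528 and 0.13 in edgeR), and with at least 5 Nos2 UMIs Treml4 was not (-0.49). Ccr2 was at -0.39, not called, and at -0.61 and lower with total UMIs. The summed monocyte markers stood at 2816, 3232, 2300.3 and 3848 against 2350.0, 2321, 1365 and 2837, with the most UMIs on Ly6a. Neutrophil markers (3 of 10 higher, with the most UMIs on Csf3r) stood at 245, 226, 153 and 491 against 206, 172, 160.4 and 374. The higher ones were Mmp8 (log2 fold change 2.10), Mmp9 (1.04) and S100a8 (0.83). Mmp9 was not called without isotype control (0.81), single antibody A (0.99) or the library block. Nor was S100a8 at 10000 to 40000 UMIs (0.53), with at least 5 Nos2 UMIs (0.46) or without the block. With single antibody B, S100a8 was lower, at 17.6 against 23.9, as was Mmp9 in the combination, at 13.3 against 13.9. Dendritic cell markers (3 of 12 higher and 2 lower, or 2 and 4 with total UMIs) stood at 269, 297, 221 and 274 against 148, 119, 97.8 and 164. Their gene with the most UMIs was Il7r, at 178, 203, 148 and 157 against 42.1, 41.9, 36.9 and 54.5. Most of the rise in the sums lay in Il7r, while the median log2 fold change of the list was -1.01. With Il7r, Mreg (log2 fold change 1.15) and Relb (0.70) were called higher, and Ccr7 (-1.81) and Xcr1 (-1.56) lower, while Clec9a (0.55), Flt3 (-1.52), Zbtb46 (-0.85) and Cd209a (-1.26) were not called. Except for Il7r, these calls were not stable. Ccr7 lost its call under 4 alternatives, at -0.85 with the top 10% within each library, -0.41 against macrophages without Nos2 and 1.22 with at least 5 Nos2 UMIs. Xcr1 lost its call under 4, from -0.58 to -1.41, leaving out single antibody A among them (-1.41). Mreg lost its call without single antibody A (0.94) or single antibody B (0.95), and Relb with total UMIs (0.49). T cell markers that the rule did not use (none of 11 higher, 1 lower) summed to 12.9, 6.22, 4.79 and 14.1 against 17.7, 16.6, 8.45 and 20.7, with the most UMIs on Cd2. The one called lower, Cd4, lost its call under 9 alternatives, leaving out single antibody A (-0.82) or the combination (-1.31) among them. NK cell markers had 1 of 8 higher (Klrk1, with the most UMIs) and 1 lower (Klrd1), and summed to 33.4, 42.9, 38.3 and 41.9 against 45.3, 41.8, 17.6 and 41.5. Klrk1 was not called with total UMIs or without isotype control, single antibody A or single antibody B (0.72, 0.67 and 0.38), nor was Klrd1 without isotype control or single antibody A (-1.11 and -1.14), and Klrd1 turned to 0.046 with at least 5 Nos2 UMIs. B cell markers had none of 6 higher and 1 lower (Ighm, and 2 genes with total UMIs), and summed to 97.4, 60.3, 21.3 and 33.8 against 214, 157, 122 and 94.0. Tumor and stromal cell markers (none of 11 higher and 4 lower, or 7 lower with total UMIs, with the most UMIs on Cdh1) stood at 97.8, 71.2, 83.0 and 37.6 against 80.9, 224, 105 and 56.4. The 4 called lower were Col1a2, Col3a1, Dcn and Sparc (which fell outside the naming rule), with log2 fold changes of -3.52, -1.88, -1.29 and -1.05. Without single antibody A, Col1a2 (-0.60), Col3a1 (-0.87) and Dcn (-0.50) were no longer called, and Col3a1 and Dcn changed direction under 4 and 3 alternatives, to at most 1.77 and 1.47. None of these markers was at 0 in all Nos2-high cells, and the part of such cells in the differences was not tested. The doublet scores of Scrublet placed in the top 5% of a library 2.08%, 4.26%, 4.35% and 5.33% of Nos2-high cells and 4.18%, 3.01%, 3.57% and 3.23% of other macrophages, and without them 1036 genes were higher and 889 lower.

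Levels were then followed over steps of Nos2: macrophages with no Nos2 UMI, 3 equal groups of those with a UMI but below the limit, the Nos2-high cells outside the top 2% (8% of macrophages) and the top 2%. The top 2% held under 20 cells in isotype control and single antibody B, which are left out for that step. Cd274 went over the steps from 119 to 1048 with single antibody A and from 201 to 1022 in the combination. Slc7a2 went from 109 to 724 and from 165 to 1109 in these libraries, and in isotype control from 101 without Nos2 to 654 in the Nos2-high cells outside the top 2%. Cxcl9 took another course in the combination, at 1652 without Nos2 and at 1832, 2568 and 2484 in the 3 groups below the limit. It then stood at 2455 in the Nos2-high cells outside the top 2% and at 1453 in the top 2%. With single antibody A it was at 1341 without Nos2, between 1760 and 1943 over the next 4 steps and at 2717 in the 36 cells of the top 2%. Cxcl10 in the combination was at 528 without Nos2, 820.2 in the Nos2-high cells outside the top 2% and 417 in the top 2%. With single antibody A it went from 278 through 904 to 1344 over these steps. Mrc1 went down, from 882 to 418 with single antibody A and from 604 to 159 in the combination. All steps were set by Nos2 alone, and the courses are descriptions without a test.

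**Figure D4:**
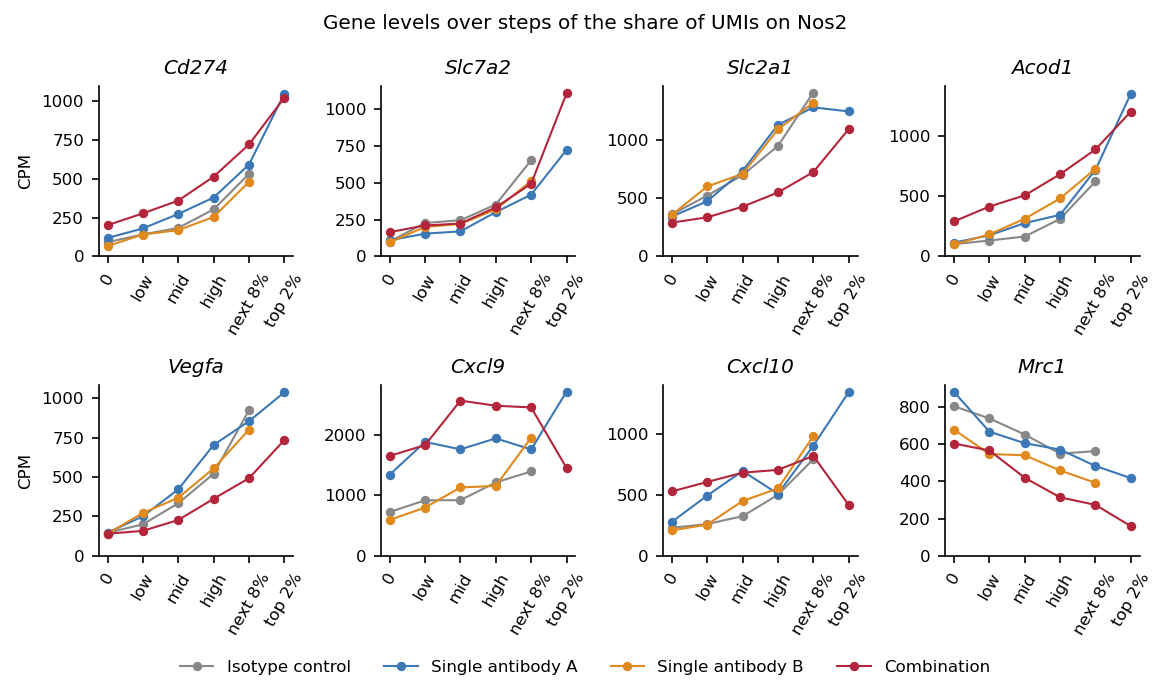
CPM (y axis, from 0) of 8 genes over 6 steps of the share of UMIs on Nos2 (x axis, from macrophages with none to the top 2%), with a line per library and steps under 20 cells left out. Cd274, Slc7a2 and Acod1 are higher in the top 2% than in any earlier step, and in the combination Cxcl9 and Cxcl10 are lower in the top 2% than in the step before.

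The Nos2-high cells were not uniform among themselves. Across the 144, 258, 92 and 920 Nos2-high cells of a library, the shares of UMIs on Slc2a1 and Vegfa had Spearman correlations of 0.57, 0.59, 0.64 and 0.48. Cxcl9 and Slc2a1 were correlated at -0.25, -0.47, -0.40 and -0.19. Cxcl9 and Cxcl10 were correlated at 0.33, 0.32, 0.50 and 0.26, and Cxcl9 and H2-Ab1 at 0.39, 0.40, 0.30 and 0.18. The cells of a library share their source, shares of one total are not independent and counts per cell are low, so these values describe the cells and carry no test. Cxcl9 per cell had a median of 0.505, 4.70, 1.43 and 9.89 UMIs per 10000 in Nos2-high cells, and a 90th percentile of 47.3, 58.5, 76.1 and 56.7.

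Within the Nos2-high cells the libraries could be compared only by levels. Of 2398 genes that reached 100 CPM in 1 of the libraries or more, 10 (0.417%) were at least 2-fold higher in the combination than in each other library and 20 (0.834%) at least 2-fold lower. In the other macrophages 13 of 2461 genes were higher and 7 lower by that rule, with 3 and 3 genes in common. The 6 highest ratios to isotype control belonged to Slpi (a protease inhibitor), Ccl8, Procr (the protein C receptor), Cd36 (a scavenger receptor), S100a8 and Prdx1 (a peroxiredoxin). Slpi stood at 47.5, 96.0, 23.4 and 259.9, a ratio of 5.47 (4.56 to 6.62) to isotype control, and the same ratio in the other macrophages was 4.47 (4.19 to 4.76). Cd36 stood at 134, 231, 182 and 498, a ratio of 3.71 (3.33 to 4.15) against 3.75 (3.64 to 3.86) in the others. Prdx1 stood at 649.9, 917, 785 and 1949, with a ratio of 3.00 (2.85 to 3.15) in Nos2-high cells and 1.82 (1.79 to 1.84) in the others. Procr went the other way, with 3.73 (3.20 to 4.38) in Nos2-high cells and 6.29 (5.85 to 6.78) in the others. For S100a8 the ratio of 3.11 became 1.10 when the mean over cells of UMIs per 10000 was used in place of summed UMIs. S100a8 is also one of the neutrophil markers, which summed to 245, 226, 153 and 491 in Nos2-high cells and 206, 172, 160 and 374 in the others. The part of neutrophils in its ratio was not tested.

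The 6 lowest ratios belonged to the heat shock genes Hspa1a, Hspa1b and Hspb1, to Fcrls and Cd244a, and to Mt2. Hspa1a stood at 756, 512, 1074 and 86.0 in Nos2-high cells and 506, 404, 429.6 and 96.6 in the others, so that the combination had 0.114-fold (0.107 to 0.121) the level of isotype control in the former and 0.191-fold (0.186 to 0.196) in the latter. The combination library was low in these 3 genes in both classes. Their part in the differences between libraries was not tested. Fcrls stood at 483, 375, 544 and 119, with a ratio of 0.246 (0.230 to 0.263), against 0.322 (0.317 to 0.327) in the others. Rsad2 was also at least 2-fold lower in the Nos2-high cells of the combination than in those of each other library.

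For genes named above, the order of libraries within Nos2-high cells was not uniform. Acod1 was 1.52-fold (1.45 to 1.61) and Cd274 1.45-fold (1.37 to 1.53) the level of isotype control, against 3.60 (3.51 to 3.68) and 2.70 (2.63 to 2.77) in the other macrophages. Cxcl10 had a ratio of 1.00 (0.953 to 1.05) in Nos2-high cells and 2.39 (2.35 to 2.43) in the others. Vegfa and Slc2a1 were lower in the combination, with ratios of 0.543 (0.521 to 0.567) and 0.546 (0.527 to 0.566), against 1.11 (1.08 to 1.13) and 0.872 (0.857 to 0.887). Mrc1 was lowest in the combination in both classes, with ratios of 0.451 (0.425 to 0.479) and 0.651 (0.642 to 0.660). Nos2 itself, on which the cells were selected, had a ratio of 1.41 in Nos2-high cells and 3.40 in the others. Cells were drawn from the upper 28.9% of macrophages in the combination and the upper 2.31% to 8.20% in the other libraries, so levels compared across libraries come from unequal parts of each. With the top 10% of each library in place of the pooled top 10%, 43 genes were 2-fold higher and 44 lower in the combination.

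**Figure D5:**
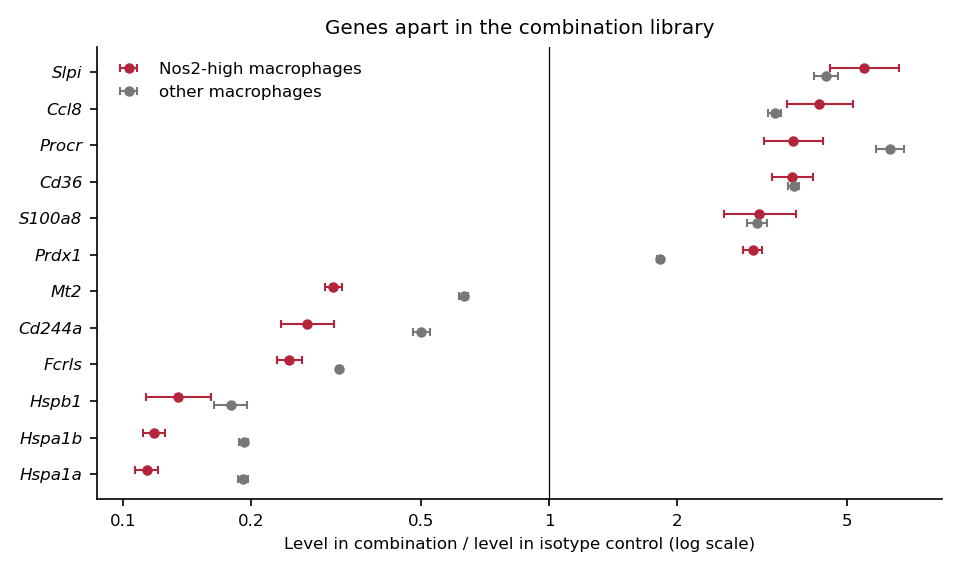
Level in the combination divided by that in isotype control (x axis, log scale) with exact 95% intervals of counting error, in Nos2-high (red) and other (gray) macrophages, for the 6 highest and 6 lowest genes. Prdx1 is further from 1 in Nos2-high cells, Procr is further from 1 in the others, and Hspa1a, Hspa1b and Hspb1 lie below 0.2 in both.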

How the data were processed

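Single-cell RNA sequencing of fixed CD45+ cells (10x Flex probes) was used as deposited. The authors deposited, for each of 4 libraries, whole-number UMI counts of 19059 genes per cell called by Cell Ranger, without normalization. The submitters' processing notes name Cell Ranger 7.0.0 and mm10, whereas the matrix headers name version 7.2.0. The libraries held 178178393, 129151823, 142472286 and 196362818 UMIs, and 28194 of 28290 cells passed the filters on genes and mitochondrial UMIs. Doublet scores came from Scrublet (scanpy 1.11.5), and cells with high scores were left out only as an alternative.

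Counts were summed over the Nos2-high and the other macrophages of each library, and the 8 sums were compared with edgeR 4.0.16 (quasi-likelihood test, TMM, filterByExpr, library as a block) in R 4.3.3. DESeq2 1.42.0, other scalings and other definitions of the class were alternatives, and scaling by total UMIs was added after seeing the data. Both classes of a library come from 1 pool of tumors, which is why the library is the block. On simulated counts of 11654 genes in this comparison, 83.67% of genes changed 2-fold and 94.85% of those changed 4-fold were recovered, with 9 false calls. Only 200 genes were changed there, equally often up and down, while 39.4% of genes in the data had an adjusted p under 0.05 (edgeR). The simulation therefore does not give the rate of false calls where a call depends on the scaling. Across treatments, which have 1 library each, exact Poisson, binomial and conditional 95% intervals were computed with scipy 1.17.1. Coordinates are from GENCODE vM21 on GRCm38.

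Genes were named by size (the 12 largest and 12 smallest log2 fold changes among called genes of at least 50 CPM with 1 direction in all libraries), by list (up to 3 called genes at either end, and all arginine genes above 10 CPM, except genes that are not reported here), by ratio across libraries and by closeness to Nos2. Other genes of a list are named where a count of 5 or fewer, or the level of a receptor or marker, called for it. Members and gene lists were chosen with earlier results of these data known. The authors' cell annotation was not used here.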

Additional observations from a re-analysis of the deposited data

Results flagged for a closer look

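Fcgr1, the high-affinity Fcγ receptor gene, stood out because its level in Nos2-high relative to other macrophages lay on different sides of 1 in different libraries when scaled by total UMIs. The ratio of CPM was 0.922 in the combination, 1.26 in the library of single antibody B and 1.09 in the library of single antibody A. Isotype control was at 1.02. With TMM scaling the ratio was above 1 in all 4 libraries, at 1.05 in the combination, so the difference in direction depends on the scaling. Each treatment had 1 library, and the difference was not tested.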

How the results depend on the processing

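Of 111 named genes tested, 70 kept their direction and their side of the threshold under all alternatives and 41 did not. With total UMIs as scaling, a choice made after seeing the data, 647 genes were higher and 1696 lower. With at least 5 Nos2 UMIs in place of the top 10%, 762 genes were higher and 329 lower. Leaving out each library in turn gave 890 to 1064 genes higher and 702 to 896 lower. Without the library block, 932 were higher and 812 lower, and 25 named genes were no longer called, which was the most under any alternative. Reversed were Ccr7 (1.22) and Klrd1 (0.046) with at least 5 Nos2 UMIs. Col3a1 reversed to 0.49 at 10000 to 40000 UMIs, 0.25 with the top 10% within each library, 1.77 with at least 5 Nos2 UMIs and 0.072 with C1q of at least 0.5%. Dcn reversed to 0.19, 0.079 and 1.47 under the first 3 of these. The cause was not tested. Shares of Nos2-high cells, in the order of the libraries, were 1.39%, 3.59%, 0.728% and 16.1% with the top 5%, 11.3%, 17.6%, 8.13% and 47.6% with the top 20%, and 7.12%, 12.7%, 5.32% and 39.8% with at least 3 Nos2 UMIs after drawing to 1 depth. Single antibody B was at 3.03% with C1q of at least 0.5%. The combination was highest in each. With the top 10% within each library, 43 genes were 2-fold higher and 44 lower in the combination. The class with the fewest cells, the 92 Nos2-high cells of single antibody B, held 1879300 UMIs, and intervals cover counting error only.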
